A study of Mus musculus with 4 samples.

Results

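Adipose spots were examined in lung sections of mice carrying 4T1 mammary tumours. A spot covers a small area with a mixture of neighbouring cells, so the adipose spots are regions rated high for fat genes and not single adipocytes. Each lung spot with more than 200 detected genes was given a score, the UMIs (unique molecular identifiers, each standing for 1 captured molecule) of Adipoq, Plin1, Cidec, Car3 and Cfd divided by all UMIs of the spot. The top 3% of each section were taken as adipose spots, which gave 134 of the 4477 lung spots kept, 51 of 1697 in animal A and 83 of 2780 in animal B, out of 9339 spots kept in the whole series. They were set against the lower 80% of spots of the same section. More than 80% of the spots held no UMI of the 5 genes, so with ties this class was every spot at a score of 0, 1576 spots in animal A and 2496 in animal B, called score-0 spots here. The members were chosen by the UMIs of these 5 genes, whose values below are a description without a test.

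The series holds a lung section and a primary tumour section from each of 2 BALB/c mice, called A and B in the order of their label numbers and profiled on formalin-fixed paraffin-embedded tissue. Both mice had received 100000 cells of 4T1, a metastatic BALB/c breast cancer line, in the mammary fat pad at 8 weeks of age and were sacrificed on day 28. A lung section from a mouse without tumour is not among the samples, so all spots compared come from tumour-bearing animals. With 1 lung section per mouse, n = 2 mice for each comparison. The standard errors (SE) of the blocked fit described below come from a dispersion shared over genes and not from the spread of a gene between these animals.

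Adipocytes store fatty acids as triglyceride in lipid droplets that perilipins and CIDE proteins coat, and release them again by lipolysis. White adipocytes store energy and secrete adipokines such as adiponectin (Adipoq), adipsin (Cfd), leptin (Lep) and resistin (Retn), whereas brown adipocytes burn fat through the uncoupling protein Ucp1. The alveolar part of the lung holds few adipocytes, while fat is known to lie around the large airways and vessels of the lung root, in the mediastinum and on the heart.

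The score rested on few molecules. In animal A the section held 387 UMIs of the 5 genes, 311 of them in the adipose spots, with a median of 2 and a maximum of 30 per spot. In animal B it held 1417, of which 1151 were in the adipose spots, with a median of 7 and a maximum of 137. Car3, a carbonic anhydrase abundant in adipocytes and in slow muscle, and Cfd made up most of the score, with 140 and 136 UMIs in the adipose spots of animal A and 402 and 589 in those of animal B. Adipoq gave 9 and 35 UMIs, Plin1, which coats the adipocyte lipid droplet, 9 and 44, and Cidec, which enlarges droplets, 17 and 81. All 5 genes were thus seen among the members of both sections. At the edge of the class, the lowest member of animal A had a score of 229 CPM (counts per 1e+06 UMIs) and the highest spot outside it 219 CPM, and in animal B these were 439 and 437. Of the members, 13 in animal A and 6 in animal B rested on 1 score UMI, and 20 and 61 had 5 or more.

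The adipose spots were mostly gathered in patches, as the maps of both sections show. Of the 51 in animal A, 40 touched another, and of the 83 in animal B, 75 did. Patches of 10 or more spots numbered 2 in animal A (20 and 13 spots) and 3 in animal B (28, 19 and 17 spots), and together they took 33 and 64 of the members. The other members lay in small groups or alone, with 11 isolated spots in animal A and 8 in animal B. A position next to a gap or the border of the tissue was held by 17.6% of the adipose spots against 10.8% of all spots in animal A, and by 30.1% against 10.8% in animal B.

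**Figure D1:**
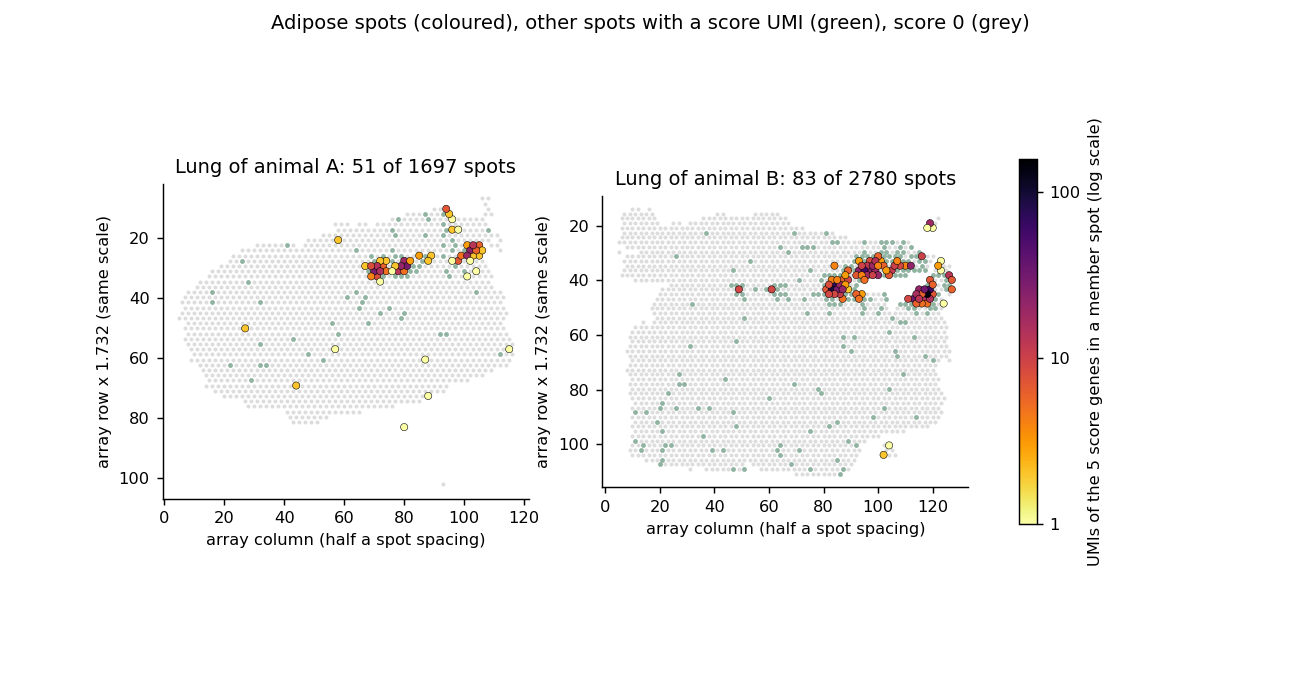
Position of every kept spot on the array for both lung sections, with columns and rows drawn to the same scale. Adipose spots are coloured by their UMIs of the 5 score genes (log scale), other spots with a score UMI are green and score-0 spots grey; the 2 large patches of animal A and the 3 of animal B lie toward 1 side of each section, and 11 and 8 adipose spots stand alone.

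The adipose spots held 321046 UMIs in animal A and 530881 in animal B, against 10218992 and 27634891 in the score-0 spots, and the median per spot was 6680 against 6466 UMIs in animal A and 6350 against 9347 in animal B. Levels are given below as CPM of the summed spots with the score genes left out. A count of 0 in the adipose sum allows a level of up to 9.35 CPM in animal A and 5.66 CPM in animal B (3 UMIs), which covers counting error only. In such sums, fewer cells of a type and less RNA per cell cannot be told apart.

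Apart from the score genes, the adipose spots carried some further adipocyte genes, among them Fabp4, Pck1, Retn, Cyp2e1, Adig, Thrsp, Slc2a4, Cidea, Plin4 and Gpd1. Taken as a class, they were also higher in marker RNA of heart muscle, airway, smooth muscle and connective tissue, though not in every patch. Not all adipocyte genes were called. Leptin and Ucp1, at 0 or 1 UMI, were too few to be compared at this depth, 0 of 10 adipocyte transcription factors, Pparg included, and 3 of 12 lipid droplet genes were called, and of 8 white fat genes 1 was higher and 3 were lower. The name adipose is that of the rule, whose score chose the spots and so cannot support it. Of the genes named, Cyp2e1 and Adig are in no list and were picked from their values. Of the alveolar, blood endothelial and neutrophil markers tested, 9 of 11, 5 of 10 and 4 of 10 were lower than in the score-0 spots. The fit in edgeR that treats the sums as independent called 0 of 13125 genes (0% called), with 596 at an unadjusted p under 0.05, while DESeq2 in the same design called 103 genes (0.785%), all higher. The adipose and score-0 sums of a section come from the same animal, and with the mouse as a block edgeR called 1030 genes (7.85%), 720 of them higher in the adipose spots (5.49%) and 310 lower (2.36%). The calls below are those of the blocked fit, and each of them was absent from the fit without the block. Of the 1030, 1006 went the same way in both mice and 574 differed by more than 2-fold in both. The calls favour changes shared by both mice, so this agreement is largely fixed by the selection and is no separate support. The blocked fit has 1 residual degree of freedom per gene and took its spread from all genes, so that a gene on which the mice disagree can still be called. For that reason the adjusted p of limma-voom with the same block, which called 1020 genes (7.77%) and shared 736 with edgeR, is given beside the leading genes. Of 122 genes of the lists that the blocked edgeR fit called, limma-voom also called 92, 73 of 85 higher and 19 of 37 lower ones.

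Fabp4, the cytosolic fatty acid carrier of adipocytes, which capillary endothelium and some macrophages also make, had the most UMIs of these genes. It stood at 349 CPM (112 UMIs) in the adipose spots and 6.46 CPM (66 UMIs) in the score-0 spots of animal A, and at 966 CPM (512 UMIs) and 15.6 CPM (430 UMIs) in animal B. The adipose sum was higher in each mouse, 54.1-fold (exact 95% counting interval 39.5 to 74.4) in animal A and 62.1-fold (54.5 to 70.8) in animal B. The log2 fold change was 5.80 (SE 0.20, n = 2; adjusted p = 1.5e-177 in blocked edgeR and 9.2e-10 in limma-voom).

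Pck1, the enzyme that in adipocytes supplies glycerol 3-phosphate for making triglyceride, was close to absent outside the adipose spots. It had 10 UMIs (31.2 CPM) in the adipose spots and 2 UMIs (0.196 CPM) in all score-0 spots of animal A, and 37 UMIs (69.8 CPM) and 6 UMIs (0.217 CPM) in animal B. The ratios were 159 (33.9 to 1495) and 322 (135 to 933), wide because so few molecules lay outside. The log2 fold change of 7.88 (SE 0.65; adjusted p = 1.1e-30 in blocked edgeR and 5.1e-06 in limma-voom) was the highest of the genes named by the rule.

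Cyp2e1, a cytochrome P450 best known from liver, which adipocytes also make, stood at 31.2 CPM against 1.17 in animal A and 172 against 1.12 in animal B, or 26.5-fold (10.3 to 67.1) and 153-fold (101 to 238). Its log2 fold change was 6.41 (SE 0.46; adjusted p = 8.1e-42 in blocked edgeR and 4.8e-06 in limma-voom). The counting intervals of the 2 mice do not overlap.

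Retn, the adipokine resistin, stood at 43.6 CPM against 1.17 in animal A and 47.2 against 0.507 in animal B. The log2 fold change was 5.84 (SE 0.56; adjusted p = 6.1e-23 in blocked edgeR and 1.3e-05 in limma-voom). Adig, or adipogenin, a small membrane protein of adipocytes in no list used here and singled out after its values were seen, stood at 15.6 CPM against 2.45 and 83.1 against 1.95, a log2 fold change of 4.42 (SE 0.52; adjusted p = 1.9e-15).

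These genes lie apart in the genome. In the GENCODE vM21 annotation of mm10, Fabp4 is at chr3:10204088-10208576 on the minus strand, and Pck1 at chr2:173153048-173159273, Adig at chr2:158502612-158508198, Cyp2e1 at chr7:140763739-140774987 and Retn at chr8:3655770-3660110 on the plus strand. For 4 of the 5, the RefSeq promoter table (GRCm38.p6) holds a sequence, and the 250 bases before the RefSeq start are shown because these genes were higher together. That start equals the GENCODE one for Retn and Adig, while the windows of Pck1 and Cyp2e1 run 25 and 80 bases past the GENCODE start. Capitals mark matches, on either strand, to AGGTCA (a nuclear receptor element), TGACGTNA (a cAMP response element) or TTGCNNAA (a C/EBP-type sequence). All 4 are read 5′ to 3′ on the plus strand.
Pck1, chr2:173152823-173153072: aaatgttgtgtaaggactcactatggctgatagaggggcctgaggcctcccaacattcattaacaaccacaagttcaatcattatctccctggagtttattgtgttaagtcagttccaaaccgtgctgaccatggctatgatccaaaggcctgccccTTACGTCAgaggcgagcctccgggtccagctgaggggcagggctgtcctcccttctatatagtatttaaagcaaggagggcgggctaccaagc
Cyp2e1, chr7:140763569-140763818: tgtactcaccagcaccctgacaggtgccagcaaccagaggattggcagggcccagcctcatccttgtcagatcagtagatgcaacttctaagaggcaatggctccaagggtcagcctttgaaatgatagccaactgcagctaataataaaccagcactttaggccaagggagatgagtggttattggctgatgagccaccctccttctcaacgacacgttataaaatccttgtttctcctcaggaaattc
Retn, chr8:3655520-3655769: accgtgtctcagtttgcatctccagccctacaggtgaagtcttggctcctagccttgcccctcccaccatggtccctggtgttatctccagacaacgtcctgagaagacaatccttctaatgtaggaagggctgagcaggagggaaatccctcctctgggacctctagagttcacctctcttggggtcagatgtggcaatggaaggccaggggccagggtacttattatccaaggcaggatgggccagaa
Adig, chr2:158502362-158502611: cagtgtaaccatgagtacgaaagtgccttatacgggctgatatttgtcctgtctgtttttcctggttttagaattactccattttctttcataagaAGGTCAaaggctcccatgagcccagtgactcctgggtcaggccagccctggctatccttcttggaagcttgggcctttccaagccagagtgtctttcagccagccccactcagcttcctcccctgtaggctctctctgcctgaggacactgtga

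Pck1 held TTACGTCA, which is TGACGTNA read on the opposite strand, beginning 93 bases before its RefSeq start, and 2.52% of the 32851 promoter windows of this length in the table hold a match to that motif. Adig held AGGTCA, beginning 154 bases before its RefSeq start, as do 14% of all windows. TTGCNNAA, held by 9.56% of all windows, was in none of the 4 shown. A match describes the letters in the window only.

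The adipokines and secreted factors had 9 of 12 genes tested, of which 3 were higher (Retn, Rbp4 and Sparcl1) and 2 lower. Rbp4, the plasma retinol carrier that fat also secretes, was at 31.2 CPM against 13.01 and 30.2 against 5.14 (log2 fold change 1.86, SE 0.44). Sparcl1, a matrix protein, was at 334 CPM against 169.9 and 376 against 265 (log2 fold change 0.64). Vegfa, the vessel growth factor that alveolar epithelium makes in quantity, was lower, at 131 CPM against 314 and 66.1 against 86.3, and Nampt was lower in edgeR but not in limma-voom (adjusted p = 0.10). Leptin was not detected in the adipose spots of either mouse (0 UMIs), and 1 UMI was found in the score-0 spots of each. The median log2 fold change of the list was 0.64 in the blocked fit, beside -0.05 over all genes tested.

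Of 12 tested genes for fatty acid uptake and transport, 5 were higher (Fabp4, Fabp3, Lpl, Slc27a1 and Acsl1) and 1 was lower (Gpihbp1, the capillary anchor of lipoprotein lipase). Lpl, the lipase that frees fatty acids from lipoproteins, was at 81.1 CPM against 69.0 in animal A and 247 against 61.6 in animal B. Its log2 fold change of 1.29 (SE 0.19; adjusted p = 0.016 in limma-voom) came mainly from animal B. Cd36, a fatty acid translocase shared with capillaries, was not called, at 552 CPM against 967 and 536 against 454. The list's median was 0.36.

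Among 12 lipid droplet genes tested outside the score, 3 were higher and 0 lower. Plin4, a perilipin of white adipocytes, had 5 and 7 UMIs in the adipose spots, or 15.6 CPM against 2.64 and 13.2 against 0.796 (log2 fold change 3.22, SE 0.69). Cidea, a droplet protein of the same family as Cidec, was at 12.5 CPM against 0.979 and 18.9 against 0.760 (log2 fold change 4.17, SE 0.70). Fitm1, which heart and skeletal muscle also make, was also higher. Plin2, the perilipin of most cell types, was not called, at 256 CPM against 295.0 and 183 against 255.5. Plin4 and Cidea, both called, were thus at far lower levels than Plin2, and the median of the list was 0.22.

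For fatty acid and triglyceride synthesis, 18 genes were tested, of which 5 were higher (Pck1, Thrsp, Gpd1, Acacb and Me1) and 1 lower (Scd2). Acacb, Me1 and Scd2 were not called in limma-voom (adjusted p = 0.072, 0.33 and 0.11). Thrsp, a lipogenic protein of fat and liver, was at 21.8 CPM against 1.47 in animal A and 20.8 against 1.38 in animal B (log2 fold change 3.81, SE 0.62). Gpd1, which makes glycerol 3-phosphate from glycolysis, was at 34.3 CPM against 6.75 and 45.3 against 4.49 (log2 fold change 2.83, SE 0.44). The fatty acid synthase Fasn was not called, at 212 CPM against 130.2 and 334 against 315. The desaturase Scd1 was not called either, at 268 CPM against 181 in animal A and 162 against 182 in animal B, opposite ways in the 2 animals. Both are used by many lung cells, and the list's median was 0.25.

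In lipolysis and its control, 12 genes were tested, 3 higher (Adrb3, Pde3b and Gpd1) and 1 lower (Adrb1, adjusted p = 0.13 in limma-voom). Adrb3, the adrenergic receptor of adipocytes, was at 12.5 CPM against 9.59 in animal A, with 4 UMIs in the adipose sum, and at 51.0 against 2.35 in animal B (log2 fold change 2.83, SE 0.47; adjusted p = 0.024 in limma-voom). Most of that call therefore came from animal B, and without the members high in cardiac or airway markers the log2 fold change was 0.17 (adjusted p = 1.0 in blocked edgeR). The lipases themselves were not called. Pnpla2 was at 190.2 CPM against 202 in animal A and 413 against 203 in animal B, and Lipe at 112 against 109 and 109.5 against 67.2.

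Of 14 genes of insulin response and glucose uptake, 4 were higher, among them Slc2a4 and Trarg1, and 2 lower (Cav1 and Cavin2, abundant in alveolar capillaries and type I cells). Slc2a4, the insulin-regulated glucose transporter of fat and muscle, was at 31.2 CPM against 5.38 in animal A and 64.2 against 3.003 in animal B (log2 fold change 3.57, SE 0.44; adjusted p = 0.00016 in limma-voom). Cav1 was at 215 CPM against 313 and 96.3 against 135. In limma-voom Trarg1, Cav1 and Cavin2 were not called (adjusted p = 0.051, 0.079 and 0.13). None of the 10 adipocyte transcription factors tested was called. Pparg, the master regulator of the adipocyte state, had 2 and 3 UMIs in the adipose spots, 6.24 CPM against 2.64 and 5.66 against 2.53, too few to show a difference at this depth. Cebpb, which many cell types use, was at 820.0 CPM against 943 and 923 against 1110.

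The plot of adipocyte genes by mouse shows how far the adipose spots stood from the score-0 spots. The gap is widest for Pck1, Cyp2e1, Retn and Fabp4, and it closes toward Pnpla2, Lipe, Fasn and Scd1.

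**Figure D2:**
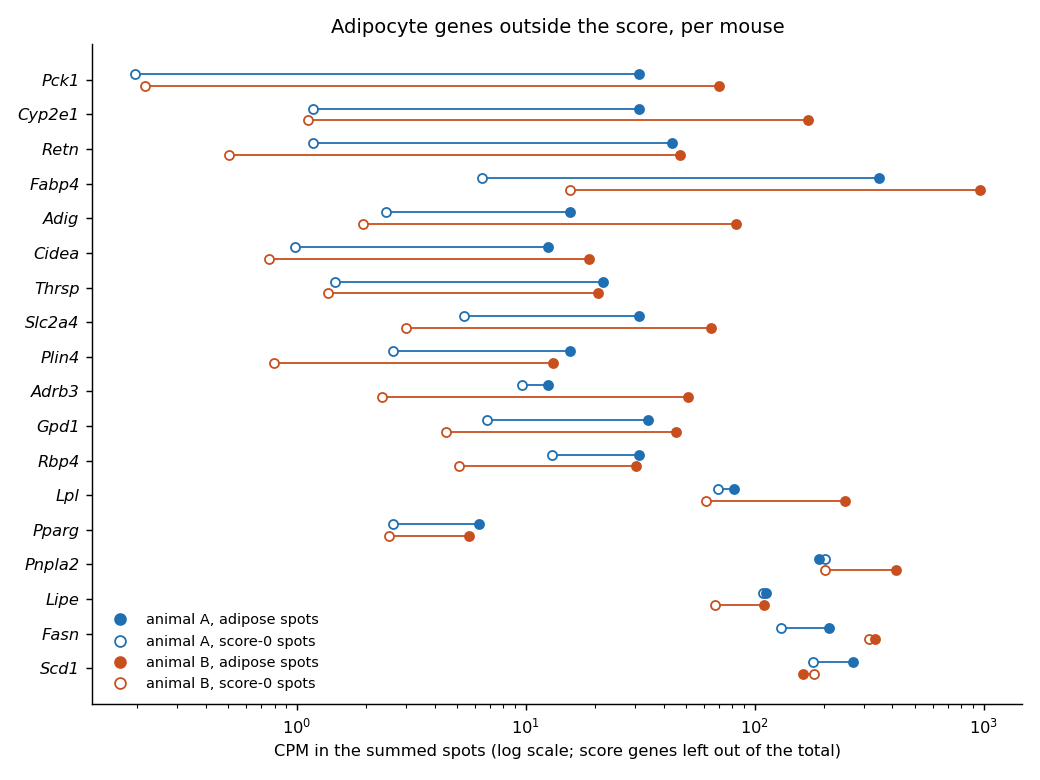
CPM (log scale) of 18 adipocyte genes outside the score in the summed adipose spots (filled) and score-0 spots (open), with a line joining the 2 sums of a mouse. Pck1 spans 0.196 to 31.2 CPM in animal A and 0.217 to 69.8 CPM in animal B, while the sums of Scd1 lie within 162 to 268 CPM and cross between the mice.

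The brown fat list shares genes with heart muscle. Of 17 tested, 11 were higher and 0 lower, with a median log2 fold change of 2.41. Those with the highest levels, the cytochrome oxidase subunits Cox7a1 and Cox8b and the fatty acid carrier Fabp3, are also genes of the heart. The other 8 called were Cidea, Adrb3, Cpt1b, Pdk4, Dio2, Ppargc1a, Ebf2 and Esrrg, and limma-voom called all 11 as well. Except for Adrb3, given above, values of these 8 without the heart-rich members are not given. Heart and fat RNA cannot be told apart in them here. Dio2, the deiodinase that activates thyroid hormone, was at 24.9 CPM against 4.21 and 22.7 against 8.00, and Ppargc1a, a coactivator of mitochondrial genes, at 21.8 against 3.23 and 9.44 against 1.59. Ebf2, a transcription factor of brown fat precursors, had 1 and 5 UMIs in the adipose spots against 5 and 6. Cox8b was at 34.3 CPM against 6.95 in animal A and 121 against 4.92 in animal B, and Cox7a1 at 46.8 against 10.3 and 153 against 10.6. The cardiac markers moved with them, 9 of 10 tested being higher. With the members rich in cardiac markers left out, the log2 fold change was -0.27 for Cox7a1, 0.56 for Fabp3 and 1.86 for Cox8b in the fit without the block, which called 0 genes in all and so gives no test of these. In blocked edgeR without the members high in cardiac or airway markers, Cox7a1 was at 0.16, Fabp3 at 0.61 and Cox8b at 1.90. Only members were left out in these fits, and the score-0 class kept its heart-rich and airway-rich spots. Lower folds of genes that go with these markers are thus in part fixed by the filter. None of them was called there. Ucp1, the gene that defines the brown adipocyte, had 0 UMIs in the adipose spots of animal A and 1 in those of animal B, against 1 and 4 in the score-0 spots. Of 8 white fat genes tested, Retn was higher and 3 were lower (Tcf21, Wfdc21 and Npr3), 2 of which are known outside fat, Tcf21 in lung fibroblasts and Wfdc21 in neutrophils. Tcf21 was at 21.8 CPM against 53.1 and 15.1 against 26.2. In limma-voom Tcf21 and Npr3 were not called (adjusted p = 0.15 and 0.066). The white fat list was at a median of -0.36, and its sum, at 2566 CPM against 3108 and 870.3 against 1471, was lower in the adipose spots of both mice.

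Of 19 beta oxidation genes, 5 were higher (Cpt1b, Acadm, Echs1, Acaa2 and Decr1) and 0 lower, at a median of 0.45, with Acaa2, the thiolase of the last step, at 149.7 CPM against 116 and 225 against 111. In limma-voom Acadm and Echs1 were not called (adjusted p = 0.057 and 0.074). Of 14 genes of branched-chain amino acid breakdown 3 were higher, beside 5.49% of all genes, namely Bcat2 (adjusted p = 0.073 in limma-voom, not called), Aldh6a1 and Pcx, the pyruvate carboxylase that feeds lipogenesis, at 77.9 CPM against 37.2 and 113 against 41.6. Among 9 acute-phase genes, 4 were higher (C3, Serpina3n, Lbp and Hp, the last at adjusted p = 0.063 in limma-voom) and 1 lower (Saa3). Complement C3 was at 1044 CPM against 514 and 906 against 324 (log2 fold change 1.17, SE 0.18), and Saa3 at 692 against 884 and 461 against 804. In blocked edgeR without the members high in cardiac or airway markers, C3 was at 0.45 and Saa3 at -0.64, neither called. The lipid-associated macrophage genes showed 1 higher (Ctsk) and 2 lower (Gpnmb and Spp1) of 8, with Spp1 at 137 CPM against 89.7 in animal A and 281 against 670.1 in animal B, so that its direction differed between the mice. None of these 3 was called in limma-voom (adjusted p = 0.15, 0.11 and 0.070 for Ctsk, Gpnmb and Spp1).

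Among genes in no list, the 10 largest increases called in the blocked fit and shared by both mice were Cyp2e1, Acsm3, Mb, Vat1l, Glycam1, Rnf207, Fa2h, Lrrc39, Slc5a8 and Gp2. Apart from Cyp2e1 they were rare. Acsm3, a medium-chain acyl-CoA synthetase, had 3 and 15 UMIs in the adipose spots against 3 and 15 in the far larger score-0 sums, a ratio of 31.9 (4.27 to 238) in animal A and 52.2 (23.8 to 115) in animal B. Mb, the oxygen store myoglobin of heart and muscle, had 4 and 23 UMIs against 7 and 20. Glycam1, a mucin-like protein of high endothelial venules and mammary gland, had 5 and 2 UMIs against 6 and 2. Slc5a8, a monocarboxylate transporter, had 5 and 7 against 5 and 16, and Gp2, a glycoprotein of M cells and pancreas, 4 and 5 against 6 and 9. The remaining 4 (Vat1l, Rnf207, Fa2h and Lrrc39) had 1 to 9 UMIs in an adipose sum. Adjusted p-values of such counts rest on few molecules. Ranked by fitted fold, the rule also named Rbpjl, Chst8, Gp9, Lcat and Mras among the lower genes, an order that says nothing of size where a sum holds 0 UMIs. The first 4 had 0 UMIs in the adipose spots of both mice, which puts Rbpjl at least 1.36-fold lower in animal A and 1.23-fold lower in animal B against a floor of 3 UMIs per sum, and Lcat, with 38 UMIs in the score-0 spots of animal A, below what the depth there can show. Mras had 0 and 1 UMIs against 91 and 402.

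Individual spots showed the same genes. In animal A, 58.8% of the adipose spots held a Fabp4 UMI (30 of 51, exact 95% interval 44.2 to 72.4) against 3.43% of the score-0 spots, and in animal B 88.0% did (73 of 83, 79.0 to 94.1) against 13.6%. These intervals take the spots of a section as independent, although most members touch another. They describe the section and not the spread between animals. Cyp2e1 was found in 15.7% and 49.4% of the adipose spots against 0.761% and 1.24%, Pck1 in 13.7% and 25.3% against 0.127% and 0.240%, and Retn in 17.6% and 24.1% against 0.761% and 0.561%. The median depths of the 2 classes, given above, were close in animal A, and in animal B the score-0 spots, with the lower shares, were the deeper ones. Sftpc, the surfactant gene that marks lung, had a UMI in 99.4% and 99.8% of the score-0 spots and in 100% and 97.6% of the adipose spots. Lpl did not separate the classes in animal A, where 31.4% of the adipose and 35.3% of the score-0 spots held a UMI.

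The members were also described by their number of score UMIs, a division by the values that chose them, given without a test and as no support for the label. In animal A Fabp4 was at 569 CPM in the 20 adipose spots with 5 or more score UMIs and at 120.5 CPM in the 31 with 1 to 4, and in animal B at 1080.1 in 61 and 445 in 22. All 10 Pck1 UMIs of animal A lay in the 20 spots with 5 or more, and 35 of 37 in animal B. Other fat genes did not all follow. Cidea and Adrb3 were each at 12.7 CPM in the weaker and 12.2 in the stronger members of animal A (2 UMIs in each). In animal B Cidea was at 10.3 and 20.7 CPM and Adrb3 at 41.4 and 53.0. Retn was at 41.4 and 48.4 CPM in animal B, but at 12.7 (2 UMIs) and 73.5 (12 UMIs) in animal A. Even the weaker members stood above the score-0 spots for Fabp4, which were at 6.46 and 15.6 CPM. The heart gene Myh6 was at 501 CPM in the weaker and 416 in the stronger members of animal A and at 2959 and 2245 in animal B. The airway genes were denser in the stronger members of animal B, as Fabp4 was, and not of animal A. Reg3g was at 2638 CPM in the weaker and 2491 in the stronger members of animal A and at 1624 and 3210.3 in animal B, and Bpifa1 at 1008 and 826 in animal A and at 735 and 2038 in animal B.

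Levels were also read by distance from the adipose spots. The score genes chose the spots, so that their lower level outside is fixed by the rule and is given for scale only. They were at 969 CPM in the adipose spots of animal A, 34.6 in the 116 spots 1 grid step away, 14.3 at 2 steps and 3.53 beyond 5 steps, and in animal B at 2168, 148, 68.8 and 3.03. Fabp4 was at 349, 43.6, 14.3 and 3.003 CPM in animal A and at 964, 191, 71.5 and 11.8 in animal B (here counted over all UMIs). Scores outside the class are limited by its edge, which was higher in animal B, so the score levels of the rings cannot be compared between the mice. In animal A the cardiac markers summed to 1464 CPM in the adipose spots, 1516 at 1 step and 385 at 2 steps, and in animal B to 7024, 4959 and 2498. The airway markers were at 6878, 3692 and 2389 CPM in animal A and at 7516, 8619 and 9234 in animal B. The mice thus differed in how the airway markers changed with distance.

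**Figure D3:**
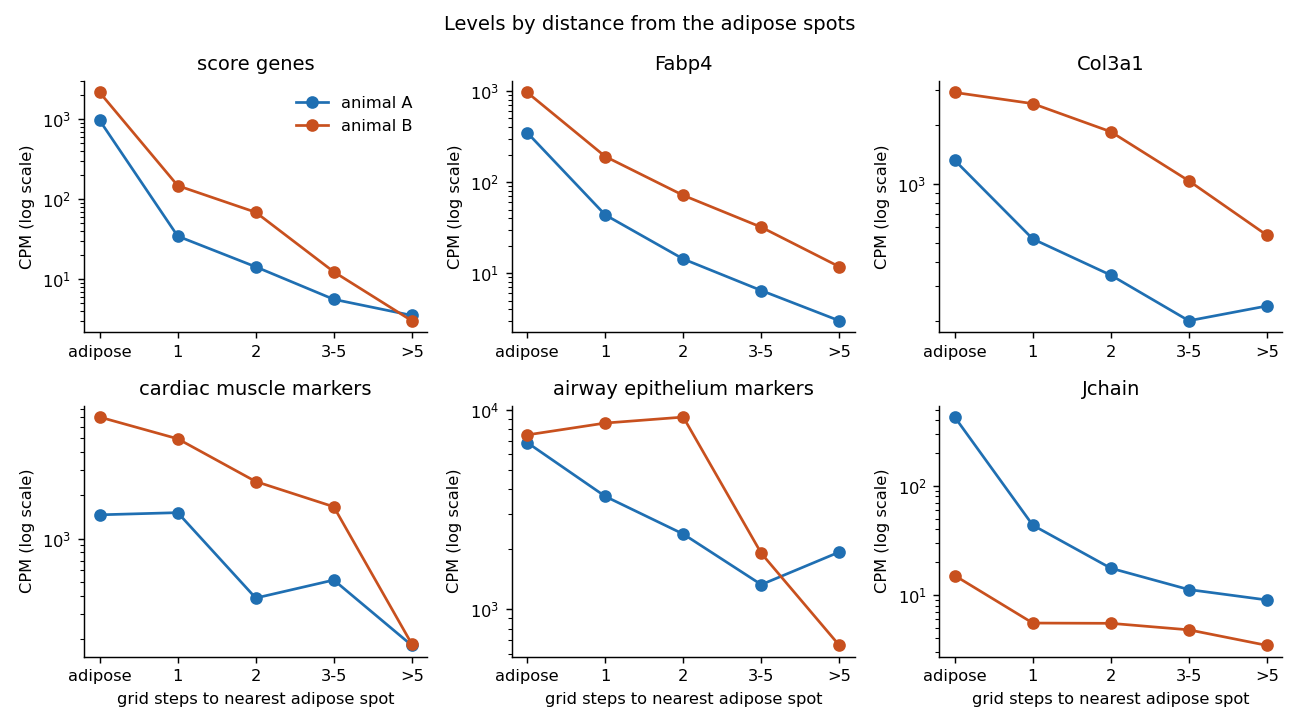
CPM (log scale, counted over all UMIs) of the summed score genes, Fabp4, Col3a1, cardiac markers, airway markers and Jchain in the adipose spots and in rings of spots 1, 2, 3 to 5 and over 5 grid steps from the nearest of them, 1 line per mouse. The lower score outside the adipose spots is fixed by the rule. Fabp4 goes from 349 to 43.6 and from 964 to 191 at 1 step, while the airway markers of animal B stay level to 2 steps.

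RNA of other tissues in the adipose spots was read from the marker lists. All 8 smooth muscle markers, 9 of 10 cardiac markers, 7 of 8 airway markers and 7 of 12 fibroblast markers tested were higher in the adipose spots, beside 5.49% of all genes. The cardiac markers summed to 1465 CPM against 347 in animal A and 7039 against 402 in animal B, led by the atrial and ventricular myosin Myh6 (458 against 107, and 2380.0 against 111), Tnnt2 (380.4 against 67.8, and 1603 against 113) and the atrial light chain Myl7 (240.1 against 47.9, and 1016 against 45.9). Nppa, the atrial hormone and one of the 9 called, had 0 UMIs in the adipose spots of animal A and 274 in those of animal B. Its call therefore rests on animal B, and 8 of the 10 cardiac markers were higher in both mice. Cardiac RNA was thus higher in the adipose spots of animal B than in those of animal A. Its part in the levels of genes that heart and fat share, such as Fabp3, Cox8b, Lpl and Slc2a4, was not tested beyond the comparison without these spots given below.

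Airway epithelium markers summed to 6884 CPM against 1829 in animal A and 7532 against 895 in animal B. Reg3g, an antibacterial lectin of airway epithelium, was at 2566 CPM against 134.5 and 2928 against 67.7, and Bpifa1, a secreted protein of large airways, at 917 against 37.2 and 1805 against 54.8. The smooth muscle markers summed to 2179 CPM against 511 and 1267 against 317, with Acta2 at 586 against 111 and 255 against 52.6 and Tagln at 642 against 156.5 and 444 against 136. Fibroblast markers summed to 4483 against 1439 and 6420.2 against 2051, with the collagens Col3a1 at 1316 against 241.5 and 2924 against 622 and Col1a2 at 1113 against 203 and 1297 against 396. Dpt, the matrix protein dermatopontin, singled out after its values were seen, was at 224.5 CPM against 62.0 and 213 against 46.6.

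Lower calls included markers of the gas exchange surface, of neutrophils and of tumour cells. Of 11 alveolar markers 9 were lower and 0 higher, beside 2.36% of all genes, and they summed to 8353 CPM against 14017 in animal A and 3792.5 against 7923 in animal B. Sftpc, the surfactant protein of type II cells, was at 6155 CPM against 10160.0 and 2750.0 against 5876, and Ager, a type I cell marker, at 608 against 1295 and 291 against 556. Of 10 blood endothelial markers 5 were lower, among them Cldn5 (262 against 506, and 136 against 242). Of 10 neutrophil markers 4 were lower (Ly6g, Camp, Retnlg and Mmp8), and S100a8, the most abundant but for S100a9, was not called in blocked edgeR (adjusted p = 0.18) but was lower in limma-voom (log2 fold change -0.58, adjusted p = 0.0099), at 25430.0 CPM against 30310.0 and 8070.0 against 13570.0. Of 8 markers of 4T1 tumour cells 2 were higher (Mmp3 and Epcam) and 3 lower (Csf3, Plau and Car9), and their sum was 337 CPM against 304 and 1576 against 1683. In limma-voom 7 of the 9 alveolar, 3 of the 5 endothelial and 3 of the 4 neutrophil markers were also called, and of the tumour markers Epcam and Plau.

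**Figure D4:**
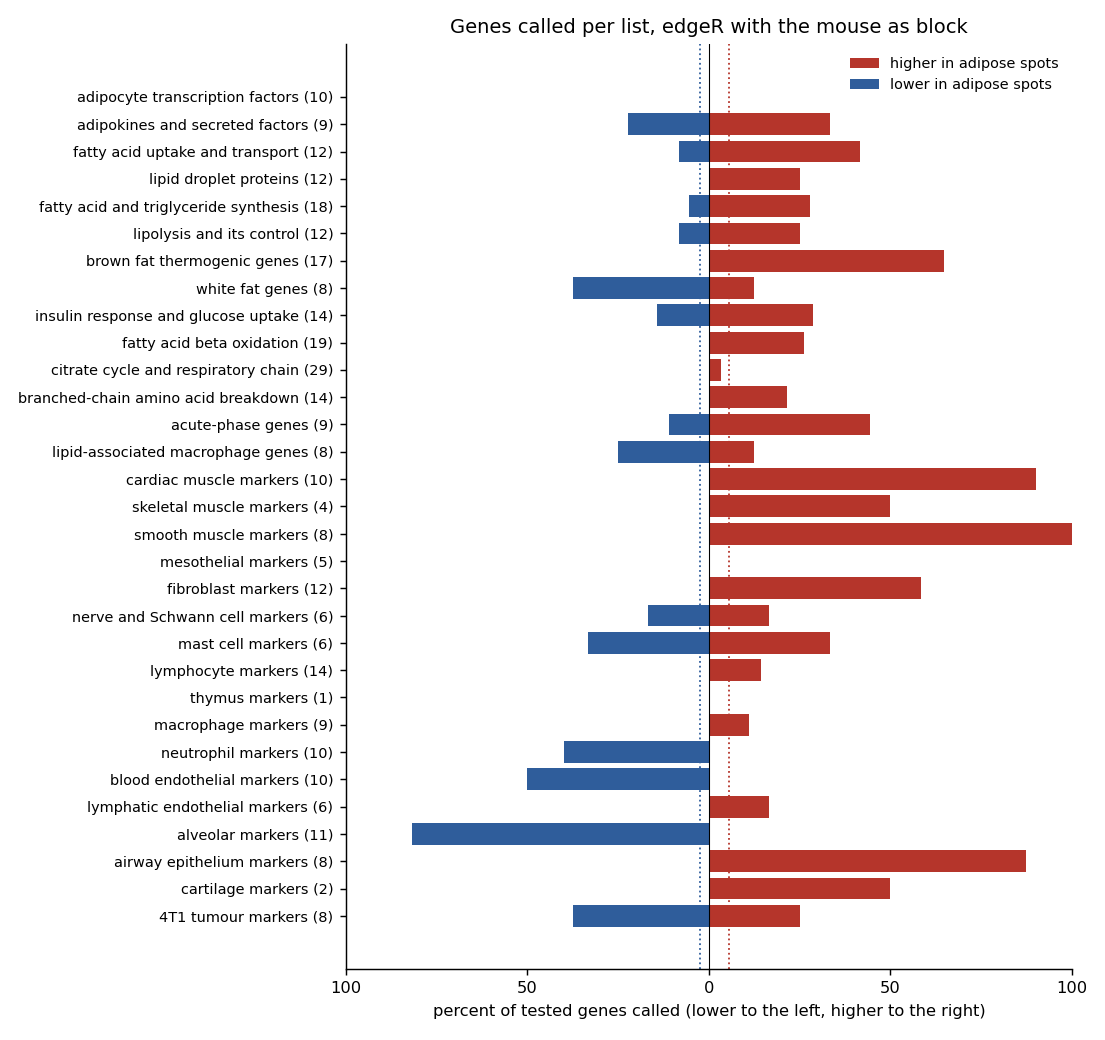
Percent of the tested genes of each list (number tested in brackets) called higher (right) or lower (left) in the adipose spots by edgeR with the mouse as block; dotted lines mark 5.49% and 2.36%, the shares over all genes. Smooth muscle (8 of 8), cardiac (9 of 10) and airway (7 of 8) markers reach furthest right and alveolar markers (9 of 11) furthest left, with the adipocyte lists in between.

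Much of the adipose class lay where heart or airway RNA was high. Of the 51 adipose spots of animal A, 15 were among the top 10% of spots for cardiac markers and 18 for airway markers, and of the 83 in animal B, 53 and 40. In all, 25 and 69 were in at least 1 of these groups, which hold 18.0% and 18.2% of all spots, and 26 and 14 were in neither. Of the leading fat genes, Fabp4 was at 390.2 CPM in the 26 spots of animal A and 480.3 CPM in the 14 of animal B, Pck1 at 25.2 and 68.6, Cyp2e1 at 25.2 and 57.2 and Retn at 31.5 and 22.9. Against the score-0 spots Fabp4 had a log2 fold change of 5.32 (adjusted p = 3.9e-77), Pck1 of 7.75 (adjusted p = 0.00053) and Cyp2e1 of 4.99 (adjusted p = 0.020), in a blocked fit that called 42 of 12429 genes (0.338%). Retn was at 4.88 but not called (adjusted p = 0.15). Myh6 was at 37.8 and 160.1 CPM in these spots and at a log2 fold change of -0.44, and Cox8b at 1.90, neither of them called. The score-0 spots were not trimmed in the same way. Myh6, Reg3g and Bpifa1 are in the lists used to leave members out, so their folds here are in part fixed by that step. Some airway, smooth muscle and connective tissue genes remained higher. Reg3g was at 396.5 and 354.5 CPM in these spots, a log2 fold change of 1.84 (adjusted p = 2.0e-08). Col3a1 was at 1.68 (adjusted p = 0.0071) and Bpifa1 at 1.46 (adjusted p = 0.016). Acta2 was called at 1.94 (adjusted p = 3.2e-08), with 667 CPM against 111 in animal A. In animal B its 5 UMIs gave 57.2 CPM against 52.6 in the score-0 spots. Tagln, at 0.86, was not called (adjusted p = 0.45). Most other fat genes were not called here either, with Thrsp at 4.16, Adig at 3.84, Plin4 at 2.94, Gpd1 at 2.53, Rbp4 at 0.60, Pcx at 0.36 and Adrb3 at 0.17. Lpl and Slc2a4 were not called, at 0.40 and 2.07, and Slc2a4 had 5 UMIs in animal A and 0 in animal B.

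A further comparison used only score-0 spots no more than 2 grid steps away (234 spots in animal A and 104 in animal B). These spots were not matched for tissue. Near spots with a score UMI were left out, so genes that go with the score can be lower in this class than in all near spots. In the blocked fit 183 of 9299 genes were called (1.97%), and 172 of the 183 were among the 1030, all in the same direction. Fabp4 was at 19.6 and 104.5 CPM in these near spots and higher in the adipose spots by a log2 fold change of 3.49 (adjusted p = 5.7e-63), Cyp2e1 by 4.79 (adjusted p = 6.8e-21), Pck1 by 5.13 (adjusted p = 3.5e-12), Retn by 4.17 (adjusted p = 1.5e-09), Gpd1 by 2.10, Thrsp by 2.06 and Slc2a4 by 1.63. Rbp4 (1.43, adjusted p = 0.087), Fabp3 (1.00, adjusted p = 0.054), Acaa2 (0.46, adjusted p = 0.22) and Sparcl1 (0.23, adjusted p = 0.68) were not called against the near spots, and Adig, Cidea, Plin4 and Adrb3 did not pass the filter on low counts there. Myh6 and Reg3g, at 3.29 and 4.77 against all score-0 spots, were at 0.89 and 1.06 against the near ones and still called (adjusted p = 0.0013 and 1.0e-04). The change of a fold between the 2 comparisons was not tested.

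The 5 patches of 10 or more spots differed in the level of heart and airway markers. Fabp4 was at 586 and 259 CPM in the 2 patches of animal A and at 728, 1332 and 1322 in the 3 of animal B, and Retn, Pck1 and Cyp2e1 had UMIs in every one. Adig, Thrsp and Plin4 had 0 UMIs in the second patch of animal A, and Cidea had 0 in the second patch of animal B. Cardiac markers ranged from 381 CPM in the first patch of animal A to 14359.6 in patch 3 of animal B, and airway markers from 1067 in the second patch of animal B to 14953 in its patch 3. The first patch of animal A, lowest in cardiac markers, was at 5405 CPM for airway markers, and the second patch of animal B, lowest in airway markers, at 7356 CPM for cardiac markers, so neither was low in both. The 381 CPM of cardiac markers in the first patch of animal A lay near the 347 CPM of its score-0 spots. Myh6 was at 91.7 CPM there against 107 in the score-0 spots, and Cox7a1 and Fabp3 had 0 UMIs. The part of these tissues in the fat genes' levels was not tested.

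The first patch of animal A, of 20 spots, was set apart by immunoglobulin RNA. Jchain, which joins secreted antibody and marks plasma cells, was at 953 CPM there, at 0 UMIs in the second patch of the same section and at 8.99, 0 and 53.9 CPM in the patches of animal B. The kappa light chain Igkc was at 7917 CPM in the first patch and 194 in the second, and the heavy chain Ighm at 5715 and 129.5. Over all adipose spots Jchain was at 427 CPM against 10.5 in animal A and 15.1 against 3.58 in animal B, Igkc at 3673 against 212 and 296 against 47.4, and Ighm at 2644 against 154 and 236 against 38.7. All 3 were higher in both mice, and the blocked fit called them, but 135 of the 137 Jchain UMIs in the adipose spots of animal A came from that patch. Ighj4, a heavy chain joining segment, was at 1188 CPM against 42.4 in animal A and at 9.44 against 7.89 in animal B, where 5 UMIs do not separate the classes, although the blocked fit called it. The immunoglobulin genes were singled out after their values were seen.

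**Figure D5:**
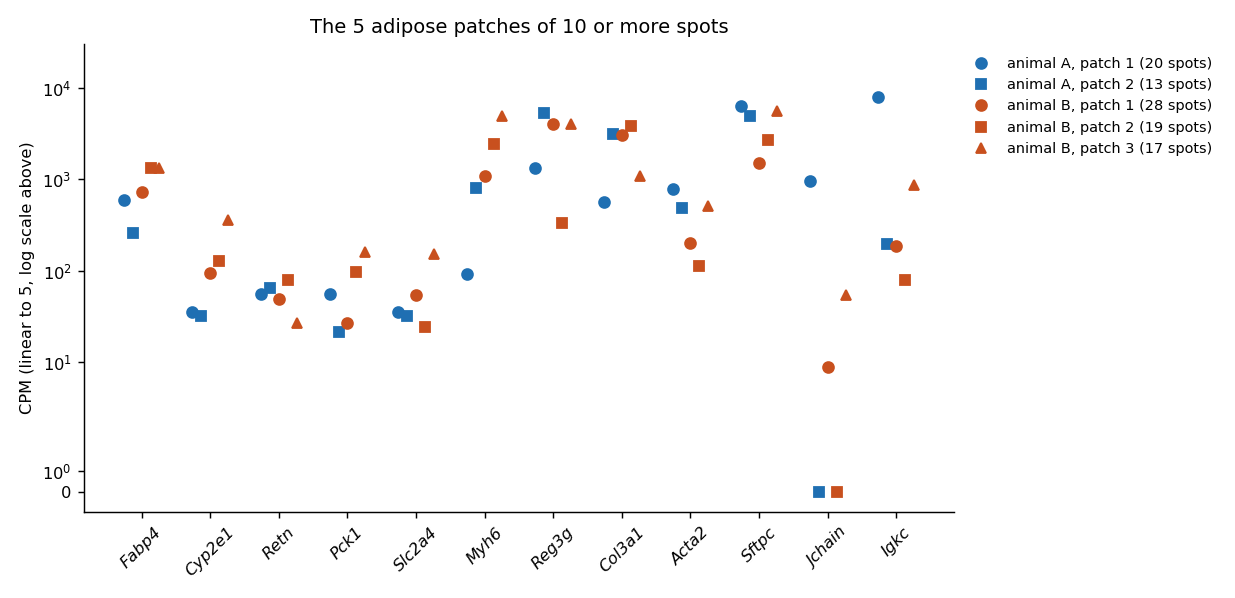
CPM (linear to 5, log scale above, counted over all UMIs) of 12 genes in each of the 5 adipose patches of 10 or more spots, blue for animal A and orange for animal B. Fabp4 lies between 259 and 1332 CPM in all 5, whereas Myh6, Reg3g and Jchain spread widely and Jchain is at 0 in 2 patches.

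The same rule was applied to the primary tumour sections. That of animal A held 26 score UMIs in all (1.92 CPM), so of its 75 top spots 49 held none and were taken from the spots at a score of 0 in barcode order, an arbitrary choice. That of animal B held 250 in 232 spots (23.0 CPM, against 34.8 and 46.9 in the lung sections). Its 71 top spots held 86, at most 3 in a spot, and were shallow, with a median of 1234 UMIs against 1820 over the section. Their 954 CPM of score genes were close to the 969 CPM in the adipose spots of animal A's lung. The test of whether the contrast differed between lung and primary tumour thus set the lung adipose spots against tumour spots that are not shown to hold fat. Without the block it called 0 of 18482 genes in edgeR (0%), 122 with an unadjusted p under 0.05, and 1 in DESeq2, and with the section as block it called 19 (0.103%), 15 with a larger difference in lung (0.0812%) and 4 with a smaller one (0.0216%). Fabp4 was at 19.1 against 20.6 CPM in the tumour of animal A and 66.7 against 33.9 in that of animal B, and the 2 tissues differed by 5.48 on the log2 scale without the block (SE 0.89, adjusted p = 0.078) and by 5.43 with it (SE 0.49, adjusted p = 1.7e-24). Pck1 and Cyp2e1 were also among the 15, as were the heart genes Tnnt2 and Nppa and the connective tissue genes Dcn, Col1a1 and Col1a2. Nppa had 0 UMIs in the lung adipose spots of animal A. Pck1 had 0 UMIs in the tumour top spots, so its size is not given. The genes of smallest p without the block also included Apod, a lipid carrier, on the higher side and Acvrl1, Kcnj15, Pard6b, Sox17 and Tmem251 on the lower side, all at an adjusted p near 1. With the block Apod and Kcnj15 were called (adjusted p = 0.0069 and 0.028), Apod with 0 UMIs in the tumour top spots.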

How the data were processed

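The deposited values are raw UMI counts of each gene in each spot, which the authors made with Space Ranger 2.0.0 on mm10. Probe pairs of a mouse transcriptome kit (19465 genes in the table), not whole transcripts, were counted. Spots over tissue with more than 200 genes were kept, and no doublet caller was run. The lung sections share 1458 barcodes, which in this assay name slide positions. Counts were summed per section and class, leaving the score genes out of totals and tests. Tests used edgeR 4.0.16 under R 4.3.3 (TMM, filterByExpr, quasi-likelihood, Benjamini-Hochberg adjustment over all genes tested, threshold 0.05), with DESeq2 1.42.0 and limma 3.58.1 (voom) as alternatives, and Python 3.11.15 for the rest. The 2 sums of a section share an animal and are paired by it (correlation of deviations from class means 0.534 over 13125 genes), and the blocked fit is given because it changed calls. On simulated counts (12682 genes) the unblocked lung fit recovered 0% of genes changed 8-fold and the blocked fit 60% at 2-fold, 98% at 4-fold and 100% at 8-fold, with 4 unchanged genes called. For the difference between tissues (16746 genes) the blocked fit recovered 78% at 8-fold. Both simulations gave every gene the same spread and each changed gene the same fold in both mice, and changed only genes with many counts. The rates therefore do not carry over to the calls made here, many of which rest on few UMIs or differ between the mice. Some genes of the lists are not reported here. Intervals of ratios and floors cover counting error only, and intervals of spot shares take the spots of a section as independent. Distances are steps on the array grid and a patch is a set of touching members.

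The members and the 31 gene lists were chosen with earlier results of these data known. Genes named are 16 adipocyte genes, up to 3 genes of highest CPM per list, the 10 largest increases and 5 largest decreases outside the lists among blocked calls shared by both mice, and 5 genes each way by size or p for the difference between tissues. Other genes of the lists are named where they were called.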

Additional observations from a re-analysis of the deposited data

Results flagged for a closer look

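Score UMIs were also found in lung spots that enter neither class, those with a score above 0 but below the top 3%. These were 76 UMIs in 70 spots of animal A and 266 UMIs in 201 spots of animal B. They were noted because they are a signal in spots that the comparison does not use, above the 3 UMIs that a count of 0 allows. Setting the adipose spots against all other spots, these included, called 0 genes in edgeR without the block, with 578 at an unadjusted p under 0.05.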

How the results depend on the processing

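Only the fits without filter or by another tool, with another member set or with the block moved the count of 0 genes called in the lung. DESeq2 called 103 genes, no filter on low counts 171, the top 1% of spots 6 (Pck1, Cyp2e1, Fabp4, Retn, Adig and 1 other), members with 5 or more score UMIs 1 (Pck1), and the mouse as replicate block 1030. All 103 genes of DESeq2 and 165 of the 171 were among the 1030. Of the blocked alternatives, chosen after seeing the data, leaving out members high in cardiac or airway markers called 42, near comparison spots 183, members with 5 or more score UMIs 743 and limma-voom 1020. The other 11 unblocked alternatives called 0 genes, the lower 50% being the same spots as the lower 80%. For the difference between tissues the count of 0 became 1 with DESeq2, 1 without a filter, 19 with the replicate block, 3 with the top 1% and 1 without the members high in cardiac markers.

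Of 1513 alternative values for single genes 20 changed direction, and the cause was not tested. Leaving out a mouse gave Cd36 from -0.81 (without animal B) to 0.24 (without animal A), Scd1 from -0.17 (without animal A) to 0.57 (without animal B), Pnpla2 from -0.0896 (without animal B) to 1.03 (without animal A) and Spp1 from -1.25 (without animal A) to 0.61 (without animal B). Fasn and Scd1 were at -0.027 and -0.16 with the top 5%, Scd1 at -0.059 with the score of 3 genes, and Scd1 and Lcat at -0.25 and 0.32 with thinning. Lipe was at -0.078 and, with the replicate block, -0.12 without members high in cardiac or airway markers, and at -0.034 and, blocked, -0.031 against near spots. Pparg was at -0.78 and, blocked, -0.72 in members with 5 or more score UMIs. Without members high in cardiac markers, Cox7a1 was at -0.27, Myh6 at -0.16 and Myl7 at -0.045, and without those high in cardiac or airway markers Myh6 was at -0.34 and, blocked, -0.44. In these fits the score-0 class kept its heart-rich and airway-rich spots. With 2 mice, 0 to 37 UMIs per sum for most adipocyte genes limit the precision. A test of the difference between tissues with a mouse left out was not run.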

Other observations

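Further lists describe what else lay in the adipose spots. Of 6 mast cell markers tested, the connective tissue proteases Cma1 and Tpsab1 were higher and Kit and Hdc lower, Hdc not in limma-voom (adjusted p = 0.095). Cma1 had 4 and 3 UMIs in the adipose spots, or 12.5 CPM against 0.587 and 5.66 against 0.290, and Kit was at 112 CPM against 225 and 30.2 against 86.9. Skeletal muscle markers (2 of 4 higher), cartilage markers (1 of 2 higher) and lymphatic markers (1 of 6 higher) were few in UMIs. The mesothelial list (0 of 5 called) and the thymus list (0 of 1 called, 7 of its 8 genes at 0 UMIs in the adipose spots of both mice) gave no call.

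Of 14 lymphocyte markers 12 were not called, and their sum was 602 CPM against 624 in animal A and 296 against 201 in animal B. The B cell attracting chemokine Cxcl13 was higher, at 9.35 CPM against 3.23 in animal A, where it rests on 3 UMIs, and 43.4 against 5.14 in animal B. Of 9 macrophage markers 1 was higher, Cd163, a scavenger receptor of resident tissue macrophages, at 62.4 CPM against 6.26 and 60.4 against 22.6. The summed macrophage markers were at 976 CPM against 593 in animal A and 999 against 1198 in animal B.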
